A study of Mus musculus with 3 samples.

Results

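Frat1 and 9 other genes of the Wnt pathway were followed on single-colour Agilent arrays. The cells were labelled as mouse embryonic stem cells, either wildtype or with a cytokine receptor gene knocked out. The members were Frat1, Frat2, Gsk3b, Axin1, Axin2, Ccn4 (formerly Wisp1), Lgr5, Tcf7, Lef1 and Nkd1, 10 of the 20659 named genes on the array. They were read from all 17 non-control probes whose accession is a transcript of one of them, out of 39429 probes. The choice of members used measured values, since Frat1 was known to be higher on both knockout arrays, so its ratios over wildtype are given as a description.

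The 3 groups were LIFR KO mESCs, gp130 KO mESCs and wildtype mESCs, with 1 array each and total RNA hybridised as Cy3-labelled cRNA. LIFR binds the cytokine LIF, and gp130 is the signalling partner that it shares with other receptors of the IL-6 family. The labels give the culture conditions only as standard and do not say how the knockouts were made or how many clones they stand for. With 1 array in each group no test was possible, and every difference below is a difference between 2 arrays.

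In canonical Wnt signalling a ligand binds a Frizzled and LRP receptor pair, and the kinase GSK3 in the Axin and APC destruction complex is then kept from marking beta-catenin for degradation. Beta-catenin enters the nucleus and works with TCF and LEF factors on target genes. FRAT proteins bind GSK3 and take it away from Axin, and inhibition of GSK3 is known to help keep mouse embryonic stem cells undifferentiated.

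Frat1 and Frat2 are neighbouring and related genes, so their promoters were compared. RefSeq promoter windows on build GRCm38.p6 were found for 7 of the 10 members and for Peg12, the other mouse FRAT gene. Both Frat genes lie on chromosome 19, on opposite strands, with no other annotated gene between them. Just upstream of their starts the windows hold a stretch of 43 bases that is identical at 39 positions without a gap, printed here 5′ to 3′ on each gene's own strand, with the positions identical in both genes in capitals. The Frat1 stretch covers chr19:41829927-41829969 on the plus strand and ends at the base before the start. The Frat2 stretch covers chr19:41848137-41848179 on the minus strand.

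Frat1: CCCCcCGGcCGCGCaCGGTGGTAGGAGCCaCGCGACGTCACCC
Frat2: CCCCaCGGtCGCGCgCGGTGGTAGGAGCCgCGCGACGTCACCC

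Its 2 longest identical runs, cggtggtaggagcc and cgcgacgtcaccc, were each found in 2 of 32851 promoter windows of 250 upstream bases, those of Frat1 and Frat2. The second run holds TGACGTC on its other strand, which is the palindromic CREB and ATF site less its last base. TGACGTC on either strand was present in 2.78% of all windows, and among the 7 members with a window in Frat1 and Frat2 alone. This motif was picked after the windows had been read. The TCF and LEF core CTTTGAT and the STAT palindrome TTCNNNGAA, searched on both strands, were in none of these members' windows, against 3.21% and 7.02% of all windows. The Peg12 window held 1 STAT palindrome, 163 bases upstream of the start. These are matches of letters and say nothing of a bound factor.

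The processed signal used below is the scanner software's brightness of a spot after background subtraction, in arbitrary units. Each spot also carries a flag that says whether it is well above background. A log2 ratio was taken after each array was scaled to its 75th percentile, which was 749.9 on the LIFR KO, 652 on the gp130 KO and 664 on the wildtype array. The ± beside a log2 ratio is its standard error from the scanner's error estimates, and an interval is the 95% interval from it. Both leave out the spread between cultures. A ratio of at least 2-fold was counted as higher or lower. Where a probe was well above background on 1 array of a pair only, the ratio is a bound.

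The arrays were alike in depth of detection except for the LIFR KO array, where fewer probes passed. Of 39429 probes, 58.3% were well above background on the LIFR KO, 65.5% on the gp130 KO and 64.4% on the wildtype array. Stray brightness lay over part of the LIFR KO array, with a local background of up to 25884, but no member probe lay in it on that array, and the local background at member probes ran from 21.5 to 31 there. As a check of the labelled cell type, 8 of 12 embryonic stem cell markers were well above background on all 3 arrays, while Sox2, Zfp42, Dppa3 and Fgf4 were on none. The summed unscaled signal of the 12 was 2587 on the LIFR KO, 2671 on the gp130 KO and 2593 on the wildtype array. All 10 epithelial markers were so on all 3 arrays, with a summed signal of 83235 on the LIFR KO, 70443 on the gp130 KO and 67499 on the wildtype array. Of 10 fibroblast and feeder markers, 6 were above background on the LIFR KO array, 9 on the gp130 KO array and 9 on the wildtype array. Their summed signals were 134920 on the LIFR KO, 125510 on the gp130 KO and 113010 on the wildtype array. The unscaled sum over all named genes had the same order of arrays, at 5.16e+07, 4.65e+07 and 4.50e+07. The markers thus bore out the label only in part, and the epithelial and fibroblast sums were far above the stem cell sum. What cells the arrays held was not tested further, nor was the part of other cell types in the ratios below. In bulk RNA fewer cells of a type and less RNA per cell cannot be told apart.

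Of the 10 members, 6 were well above background on all 3 arrays, namely Frat1, Frat2, Gsk3b, Axin1, Ccn4 and Tcf7. That is 60%, against 63.5% of all named genes. Axin2 and Lef1 were above background on the gp130 KO array only, and Lgr5 and Nkd1 on none. Axin2, Lef1, Lgr5 and Nkd1 were thus all below the detection limit on the wildtype array.

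**Figure D1:**
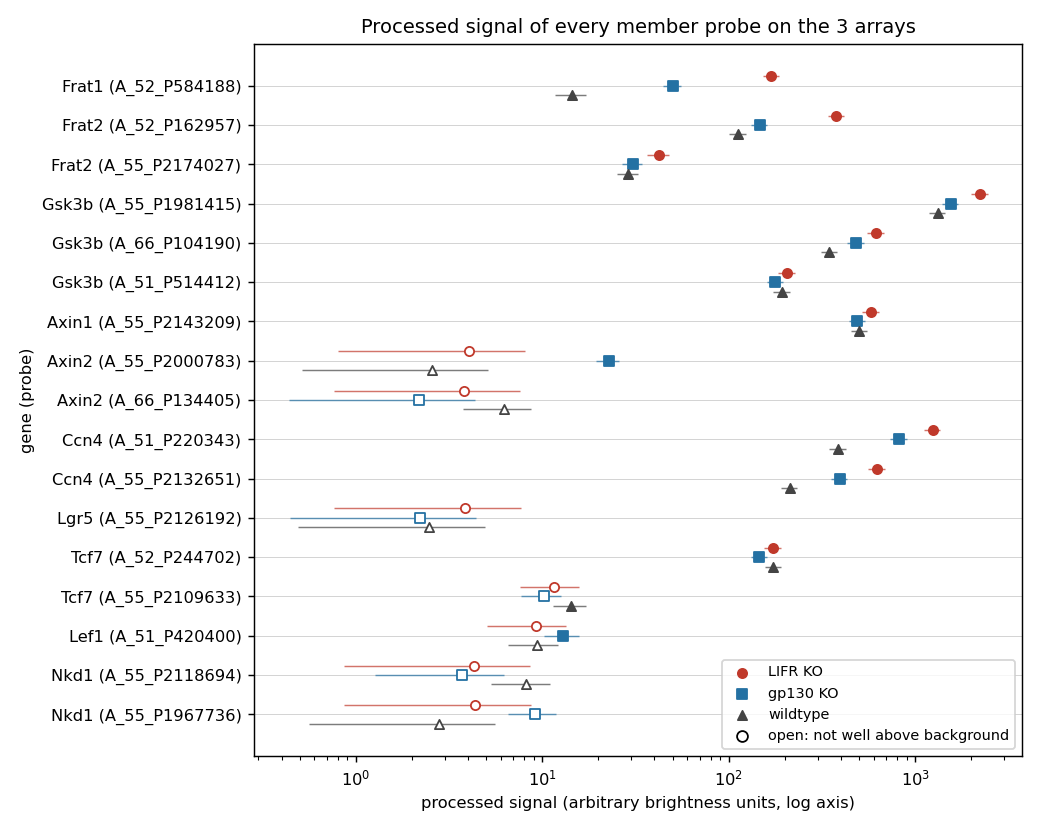
Processed signal on a log axis for each of the 17 member probes on the LIFR KO (red circles), gp130 KO (blue squares) and wildtype (dark triangles) arrays. Bars are the scanner error of the spot, drawn down to at most 80% below the point, and open symbols mark spots not well above background. The Frat1 probe is spread widest among the probes detected on all 3 arrays, and the Axin2, Lgr5, Lef1 and Nkd1 probes sit mostly in the open symbols.

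Frat1, whose product binds GSK3, was higher on both knockout arrays and far higher on the LIFR KO array. Its single probe had a processed signal of 169.6 with a scanner error of 17.4 on the LIFR KO array, 49.97 with an error of 5.45 on the gp130 KO array and 14.5 with an error of 2.79 on the wildtype array. The 3 values stood in steps far wider than these errors, and the wildtype spot was dim but flagged well above background. The ratio over wildtype was 10.4-fold for the LIFR KO (log2 3.38 ± 0.32, interval 6.76-fold to 15.9-fold). For the gp130 KO it was 3.52-fold (log2 1.81 ± 0.32, interval 2.28-fold to 5.43-fold). Set directly against the LIFR KO array, the gp130 KO array was lower by 1.56 on the log2 scale with a scanner error of 0.22, which is 2.95-fold.

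The raw pixels of the Frat1 spot showed the same order, but they belong to the same spot and are no second measurement. Its median pixel brightness was 211.5 on the LIFR KO, 91.5 on the gp130 KO and 56 on the wildtype array, over a local background of 22.5, 19.5 and 21. Where a gene was measured on both arrays of a pair its ratio could be ranked, and Frat1 came 8 of 13130 from the highest for the LIFR KO over wildtype, or 2 of 12718 without the genes touched by stray brightness. For the gp130 KO over wildtype it came 11 of 14094. Frat1 was chosen as higher on both knockout arrays, so its ranks are a description only. The size of the Frat1 ratio depended on the signal it was taken from. With the normexp correction, which here starts from the median pixels, fits the background in another way and adds an offset of 50, it was 4.80-fold for the LIFR KO and 1.51-fold for the gp130 KO, and 2.69-fold and 1.49-fold when normexp was fitted without the stray brightness. The parts of these 3 changes were not told apart.

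**Figure D2:**
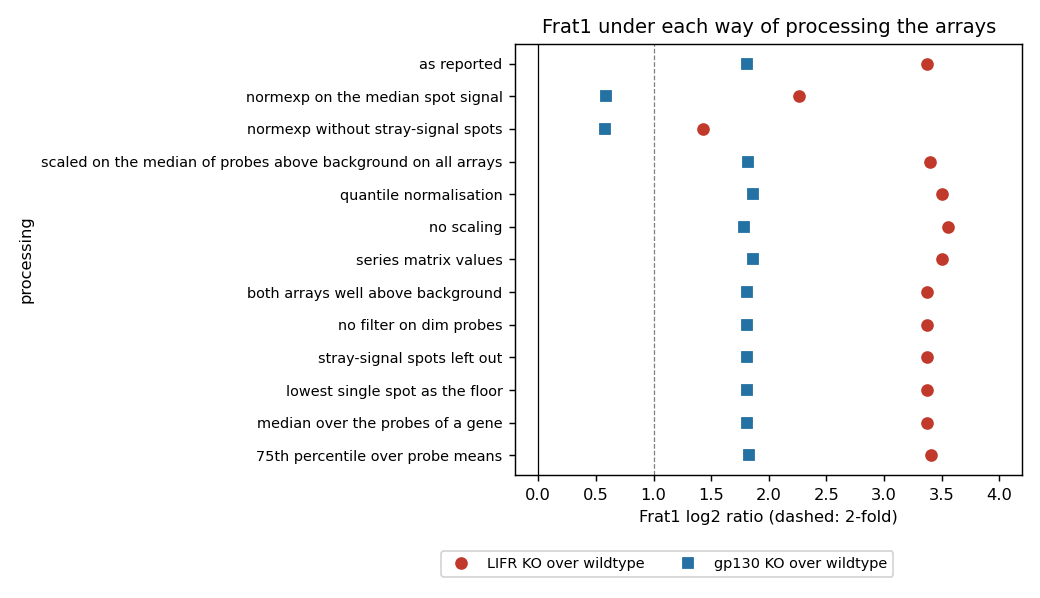
Log2 ratio of Frat1 for the LIFR KO (red circles) and the gp130 KO (blue squares) over wildtype, in a row for each way of processing the arrays; the dashed line marks 2-fold. All points lie above 0, from 1.43 to 3.55 for the LIFR KO and from 0.58 to 1.86 for the gp130 KO. The lowest values are those of the normexp corrections. The rows on filters, the floor, stray spots and the median over probes could not change the ratio.

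Frat2, the close relative of Frat1, was higher on the LIFR KO array by its brighter probe and not clearly so by the other. The brighter probe had 377 on the LIFR KO, 146 on the gp130 KO and 112 on the wildtype array, and the LIFR KO array stood apart from the others. Its ratio over wildtype was 2.99-fold for the LIFR KO (log2 1.58 ± 0.21, interval 2.26-fold to 3.96-fold) and 1.33-fold for the gp130 KO (log2 0.41 ± 0.21, interval 1.01-fold to 1.76-fold).

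The dimmer Frat2 probe had 42.2, 30.6 and 28.98 on the LIFR KO, gp130 KO and wildtype arrays. Its log2 ratios over wildtype were 0.37 ± 0.27 for the LIFR KO and 0.11 ± 0.26 for the gp130 KO, and both intervals include no difference. The 2 Frat2 probes gave the same order of arrays and disagreed on the size, and with the median of the 2 probes the LIFR KO ratio was 1.96-fold, under the 2-fold line. The gp130 KO array was lower than the LIFR KO array by 1.17 on the log2 scale with the brighter probe and by 0.26 with the dimmer one. With the normexp correction the LIFR KO log2 ratio over wildtype was 1.48 for the brighter probe and 1.74 for the dimmer one. When normexp was fitted without the stray brightness these were 1.24 and 0.14, so which probe had the larger ratio depended on the processing. Frat1 and Frat2 are related in sequence, and whether a probe of one also binds RNA of the other was not tested.

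Peg12, also called Frat3, an imprinted gene expressed from the paternal copy, is the remaining mouse FRAT gene and not a member. One of its probes had 61.6 on the LIFR KO and 20.2 on the gp130 KO array, both well above background, and 3.97 on the wildtype array, which was not. Taken from the lowest wildtype probe well above background, the bound over wildtype was 7.86-fold for the LIFR KO and 2.96-fold for the gp130 KO. Undetected spots can be brighter than that probe, so neither is a strict limit. These bounds are 2.97 and 1.57 on the log2 scale, or 2.38 and 0.97 when the floor is the lowest single spot well above background. With the normexp correction the log2 values were 2.24 for the LIFR KO and 0.31 for the gp130 KO, and without stray brightness 0.77 and 0.29, so that only the first passed 2-fold. The other Peg12 probe showed no such pattern, with 12.8, 12.6 and 13.8 on the LIFR KO, gp130 KO and wildtype arrays, and was not well above background on the LIFR KO array.

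The destruction complex members Gsk3b and Axin1 differed little between arrays. Gsk3b encodes GSK3 beta, the kinase that FRAT proteins bind, and none of its 3 probes passed 2-fold. The brightest probe had 2221 on the LIFR KO, 1549.9 on the gp130 KO and 1321 on the wildtype array. Its ratio was 1.49-fold for the LIFR KO (interval 1.13-fold to 1.96-fold) and 1.20-fold for the gp130 KO (interval 0.906-fold to 1.58-fold). Its spot on the gp130 KO array counted as stray brightness, with a local background of 34 against an array median of 21, and gave no value when such spots were left out.

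The second Gsk3b probe, at 616, 481 and 346 on the LIFR KO, gp130 KO and wildtype arrays, gave 1.58-fold for the LIFR KO and 1.42-fold for the gp130 KO. The dimmest, at 205, 178 and 193 in the same order of arrays, gave log2 ratios of -0.09 for both. So 2 of 3 Gsk3b probes were slightly higher on the LIFR KO array and 1 was level within its error. Axin1, the scaffold of the complex, had 578 on the LIFR KO, 489 on the gp130 KO and 502 on the wildtype array, with log2 ratios of 0.03 ± 0.20 and -0.01 ± 0.20. These intervals, 0.772-fold to 1.35-fold and 0.751-fold to 1.31-fold, do not reach 2-fold, as far as scanner error goes.

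Ccn4, a Wnt-induced gene of a secreted matricellular protein, was higher on both knockout arrays by both of its probes. The brighter probe had 1239 on the LIFR KO, 819 on the gp130 KO and 385 on the wildtype array. The second probe had 622, 393 and 212, in the same order and with no overlap of the scanner errors between any 2 arrays. For the LIFR KO over wildtype the ratios were 2.85-fold (log2 1.51 ± 0.20) and 2.60-fold (log2 1.38 ± 0.21). For the gp130 KO they were 2.17-fold (log2 1.12 ± 0.20) and 1.89-fold (log2 0.92 ± 0.21), so the second probe lay just under the 2-fold line. The gp130 KO array was lower than the LIFR KO array by 0.40 and 0.46 on the log2 scale, with scanner errors of 0.20 each. With the normexp correction the brighter probe's log2 ratios over wildtype were 1.14 for the LIFR KO and 0.93 for the gp130 KO, the second of which is under 2-fold.

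Axin2, the feedback scaffold whose gene is among the best-known Wnt targets, was detected by 1 probe on 1 array. That probe had 22.7 on the gp130 KO array, and 4.03 on the LIFR KO and 2.58 on the wildtype array, both not well above background. Taken from the lowest probe well above background on the other array, the gp130 KO bound was 3.33-fold over wildtype and 1.56-fold over the LIFR KO. These are not strict limits, since an undetected spot can be brighter than that probe. On the wildtype array the lowest such probe had 6.94 and the undetected Lef1 spot 9.36. With the lowest single spot well above background as the floor, the bound over wildtype was 2.20-fold, and it was 2.29-fold with the authors' series matrix values. With the normexp correction its log2 value over wildtype was 0.40, or 0.35 without stray brightness, both under 2-fold. The local background at this spot was 31 on the LIFR KO, 28.5 on the gp130 KO and 22 on the wildtype array, and its part in the signal was not tested. The other Axin2 probe was dim on all 3 arrays, at 3.81, 2.19 and 6.27, and was lowest on the gp130 KO array.

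The other feedback and receptor genes were not detected. Nkd1, an inhibitor of Dishevelled, had 4.31, 3.74 and 8.18 with one probe and 4.35, 9.19 and 2.80 with the other on the LIFR KO, gp130 KO and wildtype arrays, with no spot well above background. Lgr5, a receptor of R-spondins and a stem cell marker of the intestine, had 3.83, 2.21 and 2.46. No ratio was taken for either gene, and a difference was not detectable at these signals.

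Of the nuclear factors, Tcf7 was level and Lef1 was at the limit of detection. The brighter Tcf7 probe had 172 on the LIFR KO, 146 on the gp130 KO and 174 on the wildtype array. Its log2 ratios were -0.19 ± 0.21 for the LIFR KO and -0.22 ± 0.21 for the gp130 KO. Under the normexp correction the LIFR KO ratio stood at 0.75, where the median probe stood at 0.26. When normexp was fitted without the stray brightness, that Tcf7 ratio was -0.08. The dimmer Tcf7 probe, at 11.6, 10.2 and 14.3, was well above background on the wildtype array only. The Lef1 probe had 9.27 on the LIFR KO, 12.96 on the gp130 KO and 9.36 on the wildtype array. It was well above background on the gp130 KO array only. The ratio over wildtype was 1.41-fold, taken from the dim wildtype signal itself and so not a strict lower limit. The scanner errors were 2.69 on the gp130 KO and 2.77 on the wildtype array, so the signals overlap within their errors. With the normexp correction the Lef1 log2 value was 0.10, or 0.08 without stray brightness.

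**Figure D3:**
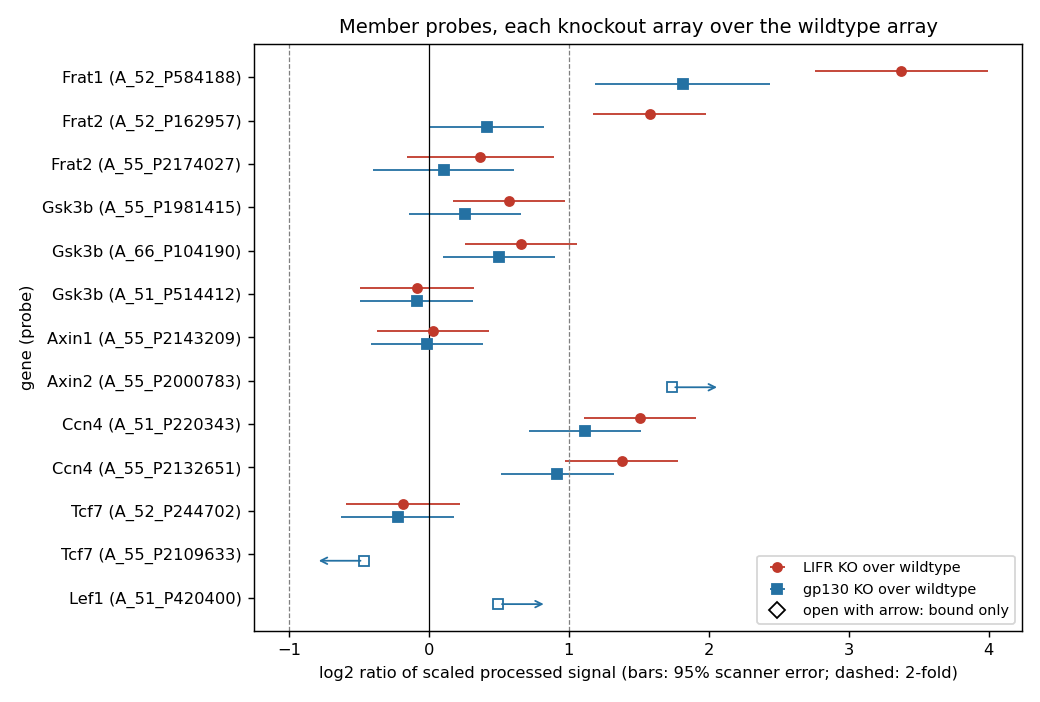
Log2 ratio over wildtype of each member probe that could be compared, for the LIFR KO (red circles) and the gp130 KO (blue squares); bars are 95% intervals from the scanner error, open symbols with arrows are bounds, and dashed lines mark 2-fold. Frat1, the brighter Frat2 probe and both Ccn4 probes lie past 1 for the LIFR KO, from 1.38 to 3.38, and the Axin1, brighter Tcf7 and dimmest Gsk3b probes lie near 0.

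Counted over genes, each by the probe with the highest mean, 3 of the 6 members compared were at least 2-fold higher on the LIFR KO array, Frat1, Frat2 and Ccn4, and none was lower. Ccn4 ranked 90 of 13130 measured genes there and 53 of 14094 for the gp130 KO. The background there was 2.87% higher and 1.62% lower, over all 14544 named genes compared. On the gp130 KO array 3 of the 8 members compared were higher, Frat1, Ccn4 and Axin2 by a bound, and none was lower, where 1.61% of all 14917 genes were higher and 0.784% lower. Frat1 was chosen for this contrast, so nothing is read from these shares. The median log2 ratio of the members was 1.04 for the LIFR KO and 0.46 for the gp130 KO. Over all genes compared it was -0.03 and 0.03. The member medians include Frat1, so nothing is read from them either. A gene for which no bound could be set entered these medians as 0. Both comparisons use the same wildtype array.

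Between the knockouts, 2 of 8 members compared, Frat1 and Frat2, were at least 2-fold lower on the gp130 KO array than on the LIFR KO array, and none was higher. Of all 14759 genes compared in this pair, 2.05% were lower and 1.29% higher. The other members measured on both arrays, Gsk3b, Axin1, Ccn4 and Tcf7, had log2 ratios from -0.40 to -0.04.

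**Figure D4:**
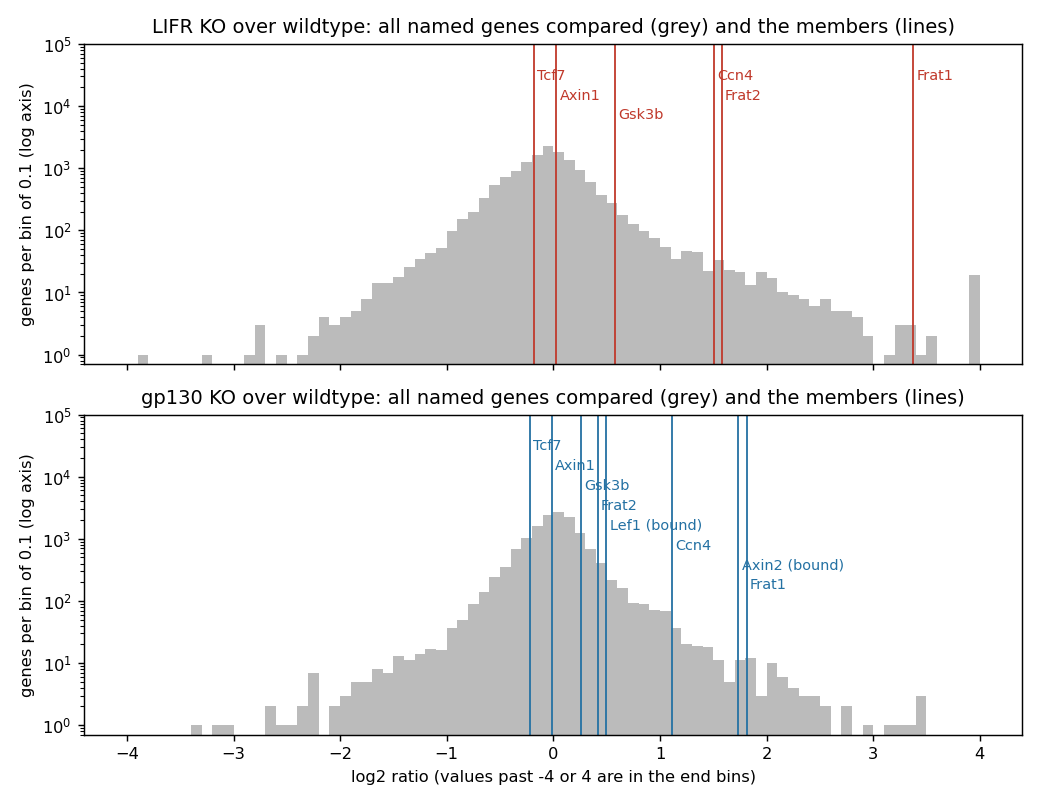
Number of named genes per bin of 0.1 in log2 ratio (log axis, grey) for the LIFR KO over wildtype (upper panel) and the gp130 KO over wildtype (lower panel), with lines at the members. Values beyond 4 are in the end bin. Frat1 lies in the upper tail of both panels, at 3.38 and 1.81, and Axin1 at 0.03 and -0.01 in the middle of both.

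A list of 111 other Wnt pathway genes by role was drawn up, all of them on the array. For the LIFR KO over wildtype 81 could be compared, of which 2 were higher, Peg12 and Wnt9a, and 3 lower, Myc, Fosl1 and Wnt5b. For the gp130 KO 85 could be compared, of which Peg12 and Wnt9a were higher and Fosl1 lower. For the LIFR KO that is 2.47% of the list higher and 3.70% lower, against 2.87% and 1.62% of all genes compared. The gp130 KO shares are 2.35% higher and 1.18% lower, against 1.61% and 0.784% of all genes. Within 2-fold lay 71 genes measured on both arrays for the LIFR KO and 77 for the gp130 KO, and 5 more in each had a bound under 2-fold or none. The medians of the list were 0.04 for the LIFR KO and 0.07 for the gp130 KO on the log2 scale.

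Among the ligands, 12 of 19 could be compared for the LIFR KO and 14 for the gp130 KO. Wnt9a, a Wnt ligand gene, had 366 on the LIFR KO, 209 on the gp130 KO and 102 on the wildtype array, in the order also seen for Frat1 and Ccn4. It was 3.19-fold higher for the LIFR KO and 2.10-fold higher for the gp130 KO. Wnt5b, best known as a ligand outside the beta-catenin branch, had 91.8 on the LIFR KO, 144 on the gp130 KO and 163 on the wildtype array, and for the LIFR KO it lay on the 2-fold threshold itself. Wnt2, Wnt2b, Wnt3, Wnt3a and Wnt6 were not detected on any of the arrays.

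No receptor, R-spondin gene, ubiquitin ligase or antagonist that could be compared had a value past 2-fold in either knockout, though only 3 of 6 genes of R-spondins and their receptors could be compared for the LIFR KO and 4 for the gp130 KO. This did not hold with the normexp correction for the LIFR KO, where the median log2 ratio was 1.70 for those 3 genes and 1.05 for the 2 ubiquitin ligases. When normexp was fitted without the stray brightness, these medians were -0.09 and 0.26. Of 14 receptors and co-receptors 11 could be compared, with log2 ratios from -0.91 to 0.70 for the LIFR KO and from -0.73 to 0.40 for the gp130 KO. Rnf43, a ligase that removes Frizzled receptors and is itself a Wnt target, had 530.1 on the LIFR KO, 424 on the gp130 KO and 315 on the wildtype array, with log2 ratios of 0.57 and 0.45. Of the 12 secreted antagonists 9 were not detected on any of the arrays, among them Dkk1 to Dkk4 and Wif1.

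All 11 other genes of the destruction complex group and all 6 cytoplasmic relay genes were detected on each array, and none passed 2-fold. Ctnnb1, the gene of beta-catenin, had 22431 on the LIFR KO, 20789 on the gp130 KO and 17570 on the wildtype array, log2 ratios of 0.18 and 0.27. Gsk3a, the gene of the other GSK3 kinase, had 19612, 17922 and 14559.9, log2 ratios of 0.25 and 0.33. The nuclear factors had a median log2 ratio of 0.20 for the LIFR KO and 0.12 for the gp130 KO, again with none of the 14 compared past 2-fold. The repressor-type factor gene Tcf7l1 was at 0.39 and 0.37.

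Feedback and target genes other than the members had a median log2 ratio of -0.34 for the LIFR KO over 15 genes and -0.18 for the gp130 KO over 16, with 11 below 0 in each. Over all genes compared, 54.4% were below 0 for the LIFR KO and 45.1% for the gp130 KO. In 12 other ways of processing the medians ran from -0.53 to -0.17 and from -0.30 to -0.09. Myc, a transcription factor gene with many inputs besides Wnt, had 3288 on the LIFR KO, 7253 on the gp130 KO and 10313 on the wildtype array, 3.54-fold lower for the LIFR KO and 1.40-fold lower for the gp130 KO. Fosl1, an AP-1 factor gene, had 1146, 1315 and 3023, 2.98-fold and 2.26-fold lower. Ccnd1, the cyclin D1 gene, had 6988, 6603 and 10717, with log2 ratios of -0.79 and -0.67. Sp5, Cdx2, T and Ascl2, further Wnt-responsive genes, were not detected on any of the arrays.

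**Figure D5:**
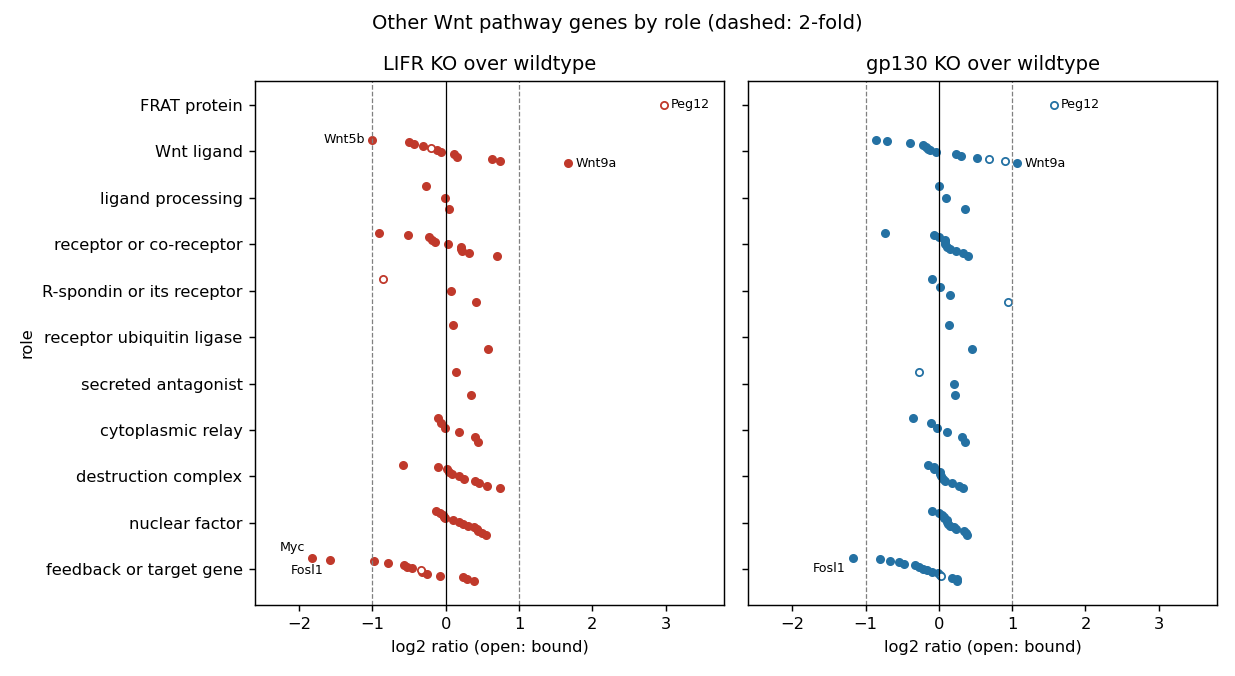
Log2 ratio over wildtype of the other Wnt pathway genes that could be compared, grouped by role, for the LIFR KO (left) and the gp130 KO (right); open points are bounds and dashed lines mark 2-fold. Peg12 and Wnt9a stand to the right in both panels, at 2.97 and 1.67 for the LIFR KO and at 1.57 and 1.07 for the gp130 KO, and the target gene group reaches -1.82 with Myc and -1.57 with Fosl1 for the LIFR KO.

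The genes whose pattern lay nearest to Frat1 were sought among 12700 others well above background on all 3 arrays and outside stray brightness, by the distance between log2 ratios in the plane of both knockouts over wildtype. Nearest was Bmf, a pro-apoptotic BH3-only gene of the BCL2 family, at a distance of 0.172, with log2 ratios of 3.55 for the LIFR KO and 1.83 for the gp130 KO. Its signals were 1284.5 on the LIFR KO, 341 on the gp130 KO and 97.4 on the wildtype array. Foxj1, a regulator of motile cilia, followed at 0.906. Tmprss11f, of the membrane serine proteases, was at 1.18, Ypel2 at 1.19 and Grhl3, a grainyhead-like factor of epithelial barriers, at 1.31. With 3 arrays this likeness rests on 2 ratios that share the wildtype array.

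The genes around the Frat pair had ratios below that of Frat1 in both knockouts. Of the 10 nearest named genes on the array, 5 on either side of the pair, 9 could be compared. Their log2 ratios ran from -0.55 to 0.49 for the LIFR KO over wildtype and from -0.68 to 0.58 for the gp130 KO, and none passed 2-fold. The Frat2 ratio for the gp130 KO, 0.41, lay inside that range, and that of the neighbour Arhgap19 was 0.58. These neighbours were chosen after the Frat values had been seen.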

How the data were processed

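The arrays carry design 026655, on mm9, and were read out by Feature Extraction 11.0.1.1 under protocol GE1_1100_Jul11, per the file headers, while the submitters' processing notes name version 9.1. The deposited intensity of each spot is a background-subtracted, detrended brightness not normalised between arrays, per the file headers. The scanner's flags are another deposited value, 0 or 1. The authors' series matrix was taken as log2, since it correlated at 0.999, 0.995 and 0.996 with the log2 processed signal of the LIFR KO, gp130 KO and wildtype arrays. Its column medians were 5.38 each, and its normalisation method is not given in the sources used here.

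Outlier spots were left out, no spot was saturated, log2 values of repeated spots were averaged, and a probe counted as well above background when at least 0.5 of its spots did. Accessions named 27234 of 39429 probes through a RefSeq table of GRCm38.p6. Bounds used the lowest probe well above background, 16.7, 9.66 and 6.94 on the LIFR KO, gp130 KO and wildtype arrays, or the dim probe's own signal where higher. Where the own signal was used, as for Lef1, the value is the observed ratio and not a strict limit. The other bounds are not strict limits either, since an undetected spot can be brighter than the lowest probe well above background. Between repeated spots of a probe the log2 SD had a median of 0.049, 0.0542 and 0.0536 in the same order. The number of arrays limits the precision.

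The members and lists were chosen with earlier results of these data known. Named were all members, Peg12, listed genes past 2-fold in a knockout and the 5 genes nearest to Frat1; other listed genes were named as examples after their values were seen. limma 3.58.1 gave the normexp correction, on the median spot signal in place of the planned mean. The ratio rule was tested on simulated data with set folds on brighter probes only. Changes from a dim wildtype signal lay outside that test.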

Additional observations from a re-analysis of the deposited data

How the results depend on the processing

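No paired analysis was possible because each group has 1 array. Frat1 stayed above 0 in all 12 alternatives for both knockouts, but it had been chosen as higher there, and not all of them could change it. Its single probe was well above background on all 3 arrays and outside stray brightness. The filter, floor, stray-spot and probe-median settings therefore returned the same Frat1 ratio. Its log2 ratio moved by more than its scanner interval with normexp, to 2.26 for the LIFR KO and 0.59 for the gp130 KO, and with normexp fitted without stray brightness, to 1.43 and 0.58; the signal, the background fit and an offset of 50 change together there. For the LIFR KO over wildtype the median probe stood at 0.26 with normexp and at 0.13 with no scaling, against -0.04 as reported. Members at least 2-fold higher stayed at 3 for the LIFR KO in 12 of 14 alternatives, with 2 under the median over probes and 1 at 3-fold. For the gp130 KO they were 0 with either normexp, and the part of the offset of 50 in this was not tested. With no filter on dim probes 1 member was lower in each comparison, a dim Nkd1 probe.

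Other Wnt genes higher for the LIFR KO were 21 with normexp, 1 without stray brightness in it, 1 with both arrays above background and 6 at 1.5-fold, against 2. Those higher for the gp130 KO were 0 with either normexp or at 3-fold, 1 with both arrays above background, the single-spot floor or the median over probes, and 5 at 1.5-fold, against 2. Those lower for the LIFR KO were 6 with no filter, 7 at 1.5-fold and 1 at 3-fold, against 3. Those lower for the gp130 KO were 3 with no filter, 2 with the median over probes, 6 at 1.5-fold and 0 at 3-fold, against 1. The causes were not tested. Over all genes, the count higher for the LIFR KO ranged from 112 to 3300 against 417 and lower from 51 to 1095 against 236. For the gp130 KO these were 9 to 685 against 240 and 33 to 594 against 117. Dim signals limit what can be said of Axin2, Lef1, Lgr5, Nkd1 and Peg12. The percentile over probe means was added after seeing the data.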
